A study of Mus musculus with 8 samples.

Results

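The genes described here are 10 members of the early response to injury and growth signals, the transcription factor genes Egr1, Fos, Jun, Junb, Fosl2, Atf3, Klf6 and Myc and the small regulators Ier2 and Ier3. They were chosen by symbol from a deposited table of 47719 genes, and all 10 were found in it. RNA came from livers of wild type C57BL/6 mice in 8 libraries: 2 of normal controls 10 weeks old, 4 taken at day 2 and 2 taken at day 14 after an extended hepatectomy, an operation that takes out most of the organ. The study treats liver failure with human hepatocyte organoids enclosed in a capsule. Its design text names EMC as a treated control at day 2 and eLO at days 2 and 14, and no label says which day 2 library had which treatment. Day 2 was therefore 1 group of mixed treatment, untreated mice with hepatectomy were not analysed here, and surgery, time and treatment cannot be told apart in any comparison below. The title of day 2 replicate 1 reads d1 against a day 2 age label, and the title of day 2 replicate 3 carries the letters TVR, which no label explains. Whether the libraries within a group are from different animals is not labelled. A p-value therefore sets a difference of group means against the spread between these libraries, which may be technical. That spread was pooled over the 3 groups and drawn towards that of the other genes.

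Immediate early genes are switched on within minutes of a growth factor, cytokine or stress signal because the proteins that act on them are already in the cell. Many of them encode transcription factors that then set the next layer of genes, and their messages are short-lived. In liver, Fos, Jun, Egr1 and Myc are known for rising soon after part of the organ is removed, as hepatocytes leave the resting state. Fos and Jun proteins join in pairs as the factor AP-1, while Myc pairs with Max and drives genes of ribosome production and metabolism.

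Values are FPKM, fragments scaled by transcript length and library depth, so levels can be set beside each other between genes. A gene was tested where 2 or more libraries reached 1 FPKM, which left 12340. All 10 genes passed. Fos and Ier3 were below that level in both controls, as was Atf3, so these 3 entered the test through libraries taken after hepatectomy. In day 14 replicate 2 they were below it as well, at 0.669 (Fos), 0.987 (Ier3) and 0.927 FPKM (Atf3). These 3 genes thus passed only because of their day 2 libraries. Each log2 change below is a difference of group means of log2(FPKM + 1). Adding 1 makes changes of genes near or below 1 FPKM look smaller than they are. A gene was called where limma's Benjamini-Hochberg adjusted p over all tested genes was under 0.05. Total FPKM per library ranged from 686332 to 1298005, and 10796 to 11197 genes per library reached 1 FPKM. Absolute depth is unknown.

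Before the values, the stretch just upstream of the start is shown for Fos, Junb, Ier3 and Klf6, the 4 genes that were called both at day 2 against control and at day 14 against day 2. The sequences are RefSeq's for build GRCm38.p6, read 5′ to 3′ on the strand of the gene from base -150 before the RefSeq start, and they end before the start of the GENCODE gene where that lies further upstream. Capitals mark TGACG (the core of the cAMP response element, CRE) and TATAAA in Fos, TGACG in Junb, a match to the NF-kB consensus in Ier3 and CACGTG (the E-box that Myc and Max bind) in Klf6.
Fos, chr12:85473740-85473889, plus strand: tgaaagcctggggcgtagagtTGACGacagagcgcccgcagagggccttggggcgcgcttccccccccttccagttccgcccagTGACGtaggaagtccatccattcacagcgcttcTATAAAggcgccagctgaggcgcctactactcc
Junb, chr8:84978749-84978898, minus strand: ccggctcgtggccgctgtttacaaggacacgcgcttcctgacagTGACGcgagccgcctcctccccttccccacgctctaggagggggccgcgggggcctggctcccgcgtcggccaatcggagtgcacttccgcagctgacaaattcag
Ier3, chr17:35821563-35821683, plus strand: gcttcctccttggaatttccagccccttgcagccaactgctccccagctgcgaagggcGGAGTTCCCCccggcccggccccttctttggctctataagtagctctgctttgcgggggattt
Klf6, chr13:5861339-5861481, plus strand: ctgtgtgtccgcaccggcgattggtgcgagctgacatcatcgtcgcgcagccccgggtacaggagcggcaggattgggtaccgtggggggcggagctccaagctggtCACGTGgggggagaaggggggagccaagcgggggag

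RefSeq windows were used for 7 of the 10 genes (Fos, Jun, Junb, Fosl2, Ier3, Atf3 and Klf6), and motifs were searched on both strands in the 250 bases before each start. TGACG stood in 3 of the 7, at bases -129 to -125 and -66 to -62 in Fos, -106 to -102 in Junb and -7 to -3 in Atf3, against 17.8% of all 32851 windows. The full element TGACGTCA, which contains that core, was in 0 of the 7 windows and in 1.55% of all. The NF-kB consensus was matched in Fos, Fosl2 and Ier3 against 7.25% of all windows, and in Ier3 it lay at bases -92 to -83, overlapping a GC box by 2 bases. GGGCGG, the GC box, was found in 6 of the 7, all but Junb, against 32.7% of all windows. CACGTG was found in Klf6 alone, at bases -43 to -38, against 6.02%, and TATAAA in Fos alone, at bases -33 to -28, against 12.4%. The AP-1 site TGANTCA (6.75% of all windows), the CArG box bound by serum response factor (1.47%) and the STAT site TTCNNNGAA (7.02%) had no match in these 7 windows. Egr1, Ier2 and Myc, and bases further upstream in the 7 genes, were not searched. These are matches of letters, with no measurement of binding here.

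Most of the genes were short, the exceptions being Atf3 with a span of 47744 bases and Fosl2 with 22042. Of the 10, 3 had a single exon (Jun, Junb and Ier2), against 1.90% of the 11258 protein-coding genes tested, and all 10 had at most 4 exons, against 20.0%. Their median span was 4610 bases against 23194. On GENCODE M21 models, ATTTA, the core of the AU-rich elements known for shortening the life of a message, was in the 3′ untranslated region of 9 of the 10, all but Ier2, against 67.7%, with a median of 2.89 per kilobase against 1.27.

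At day 2 nearly all of these genes stood above control by more than the spread between libraries. The increase was called for 9 of 10, Egr1, Fos, Junb, Fosl2, Ier2, Ier3, Atf3, Klf6 and Myc, where 9.72% of all tested genes were called higher (1200 of 12340). Of these, Fos, Ier3 and Atf3 passed the filter only because of their day 2 libraries, the group where they were high. The 10 genes were also chosen with earlier results of these data known, so the count is a description. Jun was also higher in every library but missed the threshold. The median log2 change of the 10 genes was 2.10, and that of all tested genes was 0.05. In all 10 the lowest day 2 library lay above the highest control, which held for 26.1% of tested genes. These calls leaned on having both controls: with either control replicate left out, when the lone control is assumed to vary like the other groups, 1 of the 10 was called, Fos, although every change stayed positive. With no filter on low values, which brought 21890 genes into the test, 5 of the 10 were called.

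**Figure D1:**
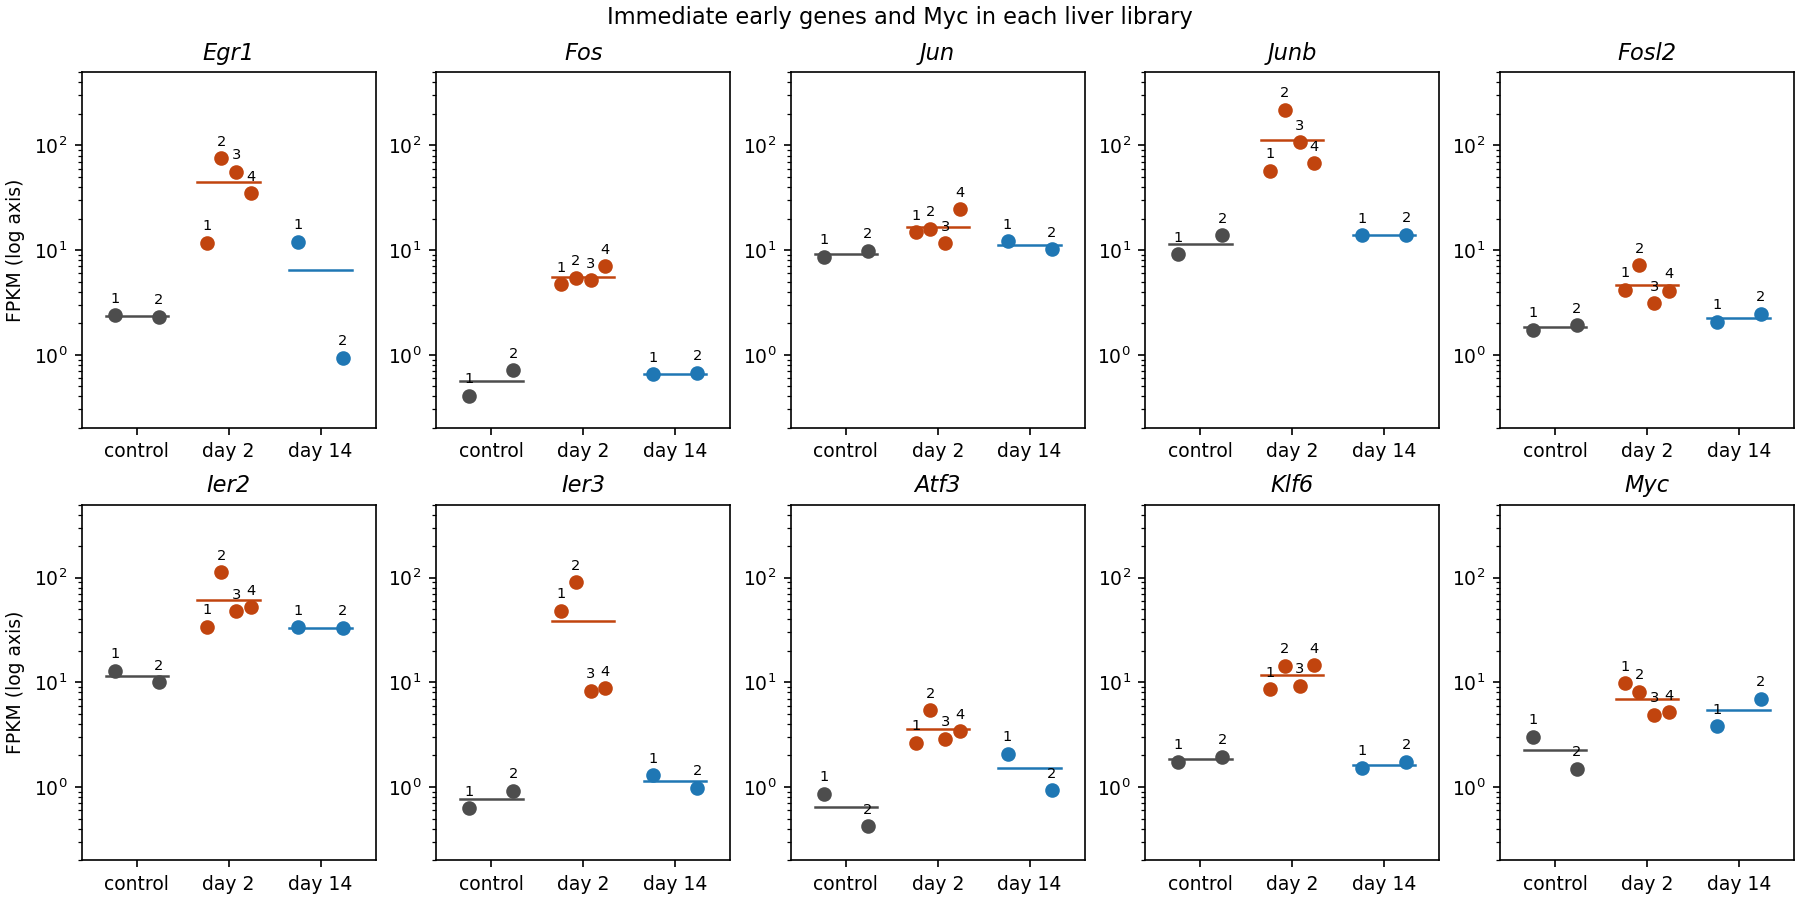
FPKM (log axis) of each of the 10 genes in each library, with points numbered by replicate and a line at the group mean. The 4 day 2 points lie above both control points in every panel, and the day 14 points lie back near control for Fos, Junb, Ier3 and Klf6.

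Egr1, a zinc finger factor that answers growth and stress signals, had the second largest day 2 change of the 10, after Ier3. It was at 2.38 and 2.30 FPKM in the controls, at 11.8, 75.1, 56.2 and 35.0 in day 2 replicates 1 to 4, and at 12.03 and 0.934 at day 14. Every day 2 library was above both controls, replicate 1 by the least, while the 2 day 14 libraries fell on either side of control and one of them reached the lowest day 2 level. The day 2 change was 3.49 ± 0.85 (SE) on the log2 scale (limma adjusted p = 0.0256), from a mean of 2.34 ± 0.0543 FPKM (SD, n = 2) to 44.5 ± 27.3 (SD, n = 4). Its call at day 2 was lost without control replicate 1 or 2 (adjusted p of 0.159 and 0.165) and with no filter (0.0619). Within the Egr family Egr1 made up 95.4% or more of the summed FPKM in every library, and Egr3 and Egr4 were listed at 0 in all 8.

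The AP-1 genes came next. Fos, which cannot bind DNA without a partner from the Jun family, was at 0.407 and 0.711 FPKM in the controls, at 4.73, 5.42, 5.16 and 6.98 at day 2, and at 0.651 and 0.669 at day 14. The day 2 libraries were close together, with the highest 1.48 times the lowest, and none overlapped the other groups. Fos rose by 2.07 ± 0.21 (SE, log2 scale, limma adjusted p = 0.00182), and by 3.13 with a pseudocount of 0.1. It was the one gene of the 10 called in every alternative tried at day 2.

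Junb, a Jun family factor that rises with cytokines and growth factors, was at 9.14 and 13.9 FPKM in the controls, at 57.3, 219, 107 and 67.3 at day 2, and at 13.8 and 14.0 at day 14. Day 2 stood apart from both other groups, and Junb had the highest mean of the 10 genes there, 113 ± 73.9 FPKM (SD, n = 4). It rose by 3.00 ± 0.50 (SE, log2 scale, limma adjusted p = 0.00784). The call was lost without control replicate 1 (adjusted p = 0.0967) or control replicate 2 (0.0741).

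Jun, the founding member of that family, differed least. Its levels were 8.67 and 9.87 FPKM in the controls, 14.8, 16.0, 11.6 and 24.6 at day 2, and 12.2 and 10.2 at day 14. All 4 day 2 libraries were above both controls, but replicate 3 was 1.18 times the higher control and lay below 1 of the day 14 libraries. The change at day 2 was 0.74 ± 0.29 (SE), with a 95% interval of 0.08 to 1.40 and a limma adjusted p of 0.0992. Without day 2 replicate 3 it was 0.89 and was called (adjusted p = 0.0494).

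Fosl2, a Fos relative that lacks the strong activating end of Fos, was at 1.73 and 1.92 FPKM in the controls, at 4.17, 7.15, 3.11 and 4.08 at day 2, and at 2.07 and 2.46 at day 14. The 3 groups did not overlap, and replicate 2 was the highest of the day 2 libraries. Fosl2 rose by 0.95 ± 0.28 (SE, log2 scale, limma adjusted p = 0.0442), close to the threshold. Its call was lost without control replicate 1 or 2, day 2 replicate 1 or 4, or day 14 replicate 1 or 2 (adjusted p from 0.0648 to 0.248), with no filter, and when day 14 was left out of the fit altogether.

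Atf3, a stress-induced factor that pairs with Jun proteins, was at 0.861 and 0.422 FPKM in the controls, at 2.65, 5.39, 2.88 and 3.40 at day 2, and at 2.08 and 0.927 at day 14. Day 2 overlapped neither group, and both day 14 libraries also lay above both controls. It rose by 1.46 ± 0.30 (SE, log2 scale, limma adjusted p = 0.0155), or by 2.32 with a pseudocount of 0.1, and lost the call without control replicate 1 (adjusted p = 0.102) or 2 (0.162).

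Ier3, a regulator of cell survival and of ERK signalling, had the largest change of the 10 and the widest spread. It was at 0.627 and 0.922 FPKM in the controls, at 48.1, 90.4, 8.34 and 8.80 at day 2, and at 1.29 and 0.987 at day 14. Replicates 1 and 2 were several times above replicates 3 and 4, and even the lowest of them was 9.05 times the higher control. Ier3 rose by 3.84 ± 0.89 (SE, log2 scale, limma adjusted p = 0.0214). The call was lost without control replicate 1 (adjusted p = 0.154) or 2 (0.142) and with no filter (0.0552).

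Ier2, a nuclear regulator whose function is less well known, was at 12.9 and 10.0 FPKM in the controls, at 34.1, 113, 47.8 and 52.0 at day 2, and at 33.6 and 33.2 at day 14. Both later groups were above control, and the day 14 pair lay just under the lowest day 2 library. At day 2 it rose by 2.20 ± 0.42 (SE, log2 scale, limma adjusted p = 0.0119). That call was lost without control replicate 1 (adjusted p = 0.0968) or 2 (0.132).

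Klf6, a zinc finger factor of injured liver, was at 1.74 and 1.95 FPKM in the controls, at 8.63, 14.4, 9.25 and 14.5 at day 2, and at 1.53 and 1.74 at day 14. Day 2 was apart from both other groups, and the day 14 pair lay just under the controls. The rise at day 2 was 2.12 ± 0.26 (SE, log2 scale, limma adjusted p = 0.00311), lost without control replicate 1 (adjusted p = 0.0587) or 2 (0.0544).

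Myc, the growth factor-responsive driver of biosynthesis, was at 3.02 and 1.49 FPKM in the controls, at 9.82, 8.13, 4.89 and 5.18 at day 2, and at 3.79 and 6.98 at day 14. All 6 libraries taken after hepatectomy were above both controls, and the day 14 pair lay within or below the day 2 range. It rose at day 2 by 1.29 ± 0.35 (SE, log2 scale, limma adjusted p = 0.0359). The call was lost without control replicate 1 or 2 or day 2 replicate 1 or 2 (adjusted p from 0.0536 to 0.287), with no filter, and after correction for transcript length and GC content (log2 change 1.13, adjusted p = 0.0683).

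At day 14 the 10 genes were nearer to control than at day 2 in mean log2 level, by unlike amounts. None of the 10 was called against control by limma (where 5.21% of all tested genes were called higher and 4.58% lower), and 2 of the 10 had an unadjusted p under 0.05. Those 2 were Ier2, with a log2 change of 1.48 ± 0.49 (SE, 95% interval 0.36 to 2.59, adjusted p = 0.0880), and Myc, with 0.97 ± 0.41 (0.03 to 1.90, adjusted p = 0.156). The other 8 lay between -0.11 for Klf6 and 0.59 for Egr1, with Atf3 at 0.58, or 1.08 with a pseudocount of 0.1. In mean FPKM, Ier2, Egr1, Myc and Atf3 were at 2.92, 2.77, 2.39 and 2.35 times control, Egr1 through replicate 1 alone. The others ran from 0.884 (Klf6) to 1.47 (Ier3) times control. In 6 genes, Jun, Fosl2, Ier2, Ier3, Atf3 and Myc, both day 14 libraries were above both controls, as they were for 35.3% of tested genes. Ier2 was called when day 2 was left out of the fit altogether (adjusted p = 0.0240) and without day 2 replicate 2 (0.0207), and its change was 0.97 after correction for length and GC content. Egr1 turned from 0.59 to -0.79 without day 14 replicate 1 and Fos from 0.10 to -0.044 without control replicate 1, and Junb, Ier3 and Klf6 changed sign after that correction, to -0.21, -0.10 and 0.21. For the other 8 genes, with 2 libraries in each group, an increase as large as the upper interval bounds could not be told from none. The unadjusted intervals of Ier2 and Myc lay above 0, but neither gene was called.

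Between day 2 and day 14, 4 genes fell: Klf6 by 2.24 ± 0.26, Fos by 1.97 ± 0.21, Junb by 2.72 ± 0.50 and Ier3 by 3.57 ± 0.89 (SE, log2 scale). Their limma adjusted p were 0.00380, 0.00343, 0.0132 and 0.0330. Of all tested genes 7.03% were called lower at day 14 and 9.09% higher, and none of the 10 was called higher. Fos and Ier3 passed the filter only because of their day 2 libraries, where they were high, so the count is a description. Egr1 differed by -2.91 ± 0.85 (adjusted p = 0.0526), and it was called without day 2 replicate 1 (-3.43, adjusted p = 0.0357) and with a filter of 5 FPKM (0.0437). Atf3 differed by -0.87 (0.0833), Fosl2 by -0.74 (0.101), Ier2 by -0.72 (0.263) and Jun by -0.50 (0.255). Myc differed least, by -0.32 ± 0.35 with a 95% interval of -1.13 to 0.48. In 7 of the 10 both day 14 libraries were below every day 2 library, against 20.4% of tested genes, and the exceptions were Egr1, Jun and Myc. Without day 14 replicate 1 none of the 10 was called, with 17 genes called in all, and without day 14 replicate 2 there were 2, Fos and Klf6. Ier3 also lost its call without control replicate 1 or 2 (adjusted p of 0.0598 for both) or day 2 replicate 1 (0.0675), with no filter (0.0761) and with the controls left out of the fit (0.0627), and Myc turned to 0.043 without day 14 replicate 1. The comparisons at day 2 and day 14 with control share the control libraries.

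**Figure D2:**
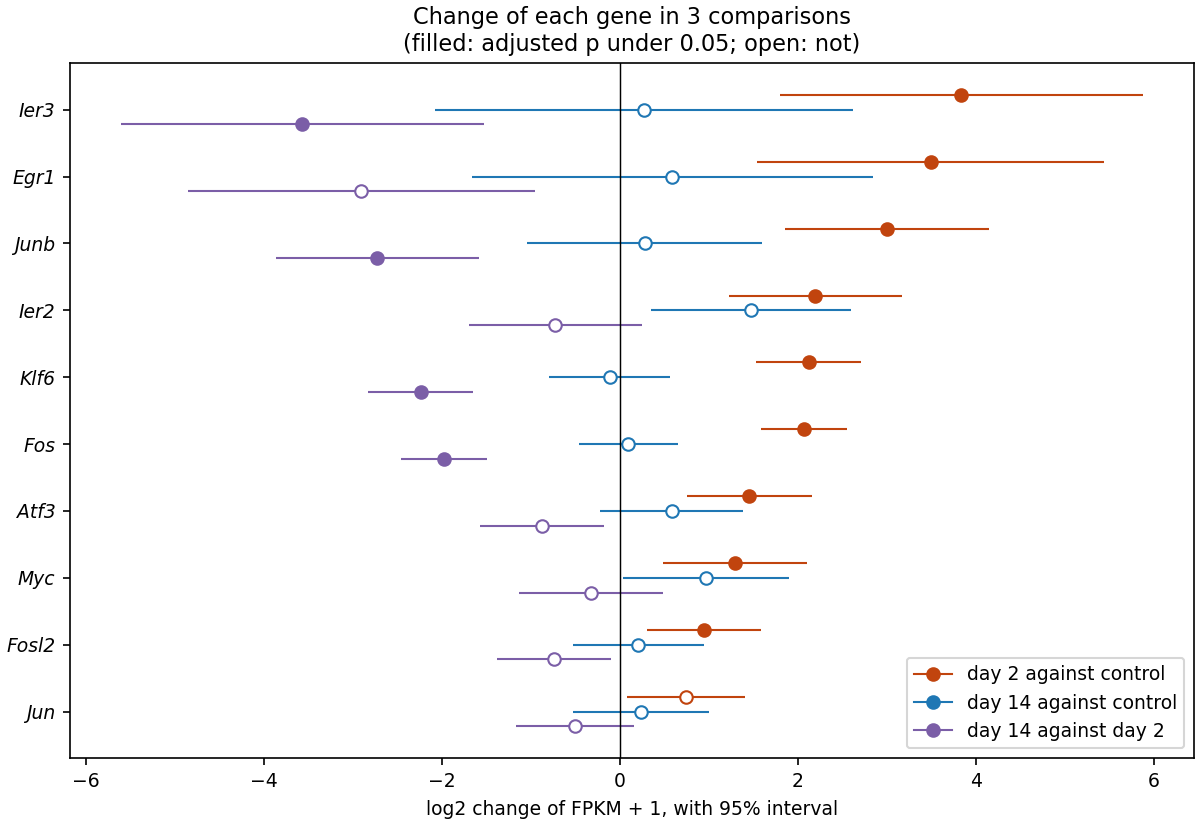
Log2 change of FPKM + 1 of each of the 10 genes in the 3 comparisons, with 95% intervals from limma and filled points where the adjusted p was under 0.05. At day 2 against control 9 points are filled and Jun is open, at day 14 against control all are open, and at day 14 against day 2 those of Ier3, Junb, Klf6 and Fos are filled.

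In the controls Junb (mean 11.5 FPKM), Ier2 (11.4) and Jun (9.27) had the highest means. The range of Junb overlapped those of Ier2 and Jun, which did not overlap each other. Egr1, Myc, Klf6 and Fosl2 followed at means of 1.82 to 2.34 FPKM. The values of Myc spanned those of the other 3, and Klf6 and Fosl2 overlapped. Ier3, Atf3 and Fos had means of 0.559 to 0.774 FPKM and overlapped each other. At day 2 the order of means was Junb at 113, Ier2 at 61.8, Egr1 at 44.5, Ier3 at 38.9, Jun at 16.8, Klf6 at 11.7, Myc at 7.00, Fos at 5.57, Fosl2 at 4.63 and Atf3 at 3.58, and each neighbouring pair overlapped in its libraries. At day 14 Ier2 was highest at 33.4 ± 0.274 FPKM (SD, n = 2) and Fos lowest at 0.660 ± 0.0130. Junb (13.9) lay above Jun (11.2) there with no overlap, while Egr1 (6.48 ± 7.85) overlapped Jun, Myc (5.38), Fosl2 (2.27), Klf6 (1.63), Atf3 (1.50) and Ier3 (1.14).

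Within the day 2 group the genes did not share 1 order of libraries. Replicate 2 was highest for 6 of the 10 (Egr1, Junb, Fosl2, Ier2, Ier3 and Atf3), replicate 4 for Fos, Jun and Klf6, and replicate 1 for Myc. Replicate 2 also had the highest total FPKM of the day 2 libraries, 1133922 against 762557, 818159 and 686332 in replicates 1, 3 and 4. The part of that total in the order was not tested. The lowest value was in replicate 1 for 6 genes and in replicate 3 for the other 4, Jun, Fosl2, Ier3 and Myc. The ratio of highest to lowest library was 10.8 for Ier3 and 6.38 for Egr1, but 1.48 for Fos and 1.68 for Klf6. Genes of dividing cells (Mki67, Top2a, Ube2c, Ccnb1, Cdk1 and Ccna2) summed to 2.94 and 1.81 FPKM in replicates 1 and 2 and to 404 and 585 in replicates 3 and 4. The controls had 7.26 and 8.36 and the day 14 libraries 8.80 and 8.79. The 2 day 2 libraries with the low sums were those with the higher Ier3 and Myc, and any link was not tested.

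**Figure D3:**
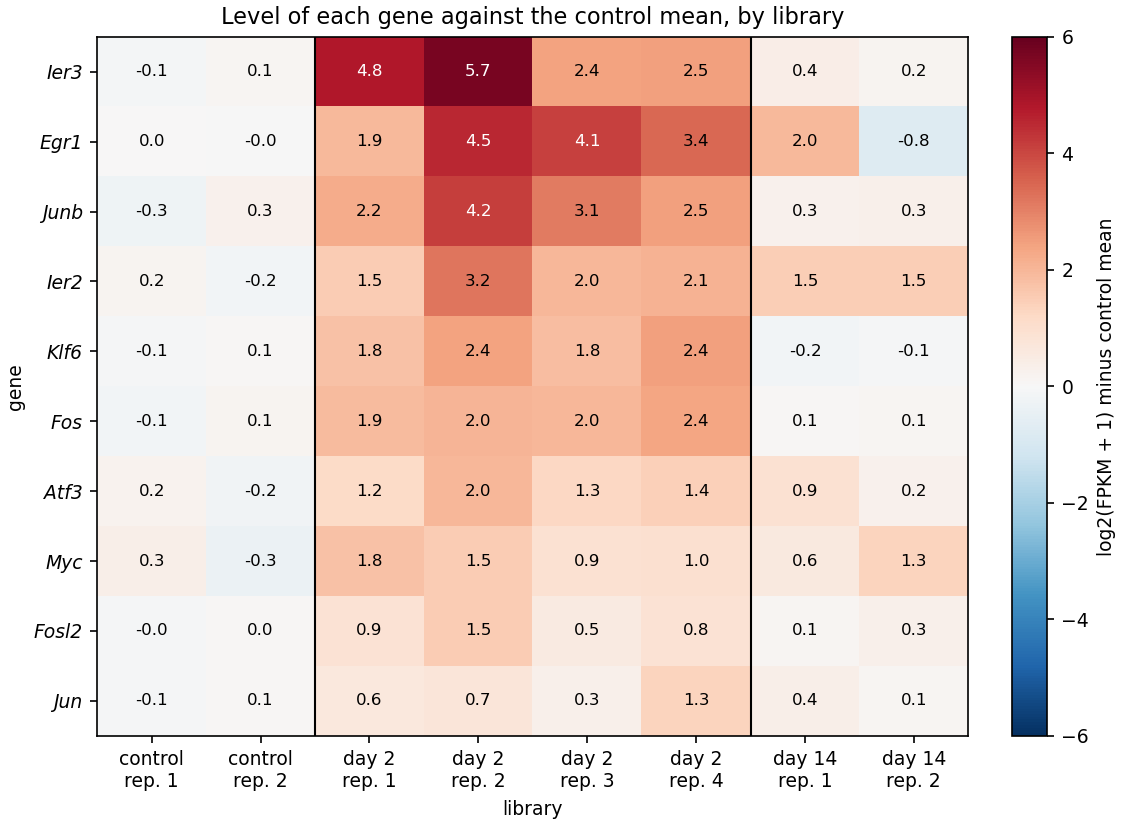
Difference of log2(FPKM + 1) from the control mean for each gene (rows, ordered by day 2 change) in each library (columns). Ier3 is darkest in day 2 replicates 1 and 2, Egr1 is palest of the day 2 libraries in replicate 1, and 8 of the 10 genes, all but Egr1 and Klf6, have values above 0 in both day 14 libraries.

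Marker genes of other cell types also differed between the groups, and in bulk RNA fewer cells of a type and less RNA per cell cannot be told apart. The 4 hepatocyte markers found (Alb, Apoa1, Apob and Ttr) summed to 34443 to 59477 FPKM at day 2, 43144 to 45731 in control and 50982 to 53209 at day 14, so the tissue label held throughout. The 7 neutrophil markers summed to 140, 322, 87.2 and 31.8 FPKM in day 2 replicates 1 to 4, against 4.21 and 7.82 in the controls and 15.9 and 70.3 at day 14. Of these, 3 of the 4 that were tested rose at day 2 (S100a8, S100a9 and Retnlg), where 9.72% of all tested genes were called higher. The granule gene Mpo was at 0 in both controls and in day 2 replicates 3 and 4. Replicate 2, the highest for those markers, was also the highest for Egr1, Junb, Fosl2, Ier2, Ier3 and Atf3. Replicate 1, the next highest at 140, was the lowest day 2 library for Egr1, Fos, Junb, Ier2, Atf3 and Klf6. Replicate 4, the lowest at 31.8, was the highest for Fos, Jun and Klf6. The 9 macrophage and monocyte markers summed to 90.9 to 109 FPKM in control, 107 to 164 at day 2 and 55.6 to 56.8 at day 14. Of the 8 tested, 2 rose and 2 fell at day 2 (against 9.72% and 11.5% of all tested genes), with a median log2 change of -0.50. Endothelial markers summed to 73.7 to 78.2, 20.8 to 65.1 and 21.7 to 40.0 in the same order, and stellate cell and fibroblast markers to 60.1 to 62.9, 62.6 to 170 and 32.1 to 51.0. Bile duct markers summed to 3.25 to 3.96, 3.998 to 19.97 and 4.94 to 5.52, erythroid markers to 254 to 306, 211 to 888 and 714 to 1481, and lymphocyte markers to 1.15 to 1.31, 0.197 to 1.34 and 3.67 to 3.96. The part of these cell types in the results above was not tested.

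The make-up of the Jun, Fos and Myc families differed between the groups. In the Jun family, Junb made up 19.6 and 29.6% of the summed FPKM in the controls, 48.0, 67.8, 63.7 and 49.0% at day 2, and 17.0 and 17.6% at day 14. Jund, the third member, had 61.8 and 49.4% in control, 39.6, 27.2, 29.4 and 33.1% at day 2, and 68.0 and 69.6% at day 14. Day 2 was thus the group in which Junb exceeded Jund in every library. In the Fos family, Fosl2 had the larger share in control (77.1 and 68.7%) and at day 14 (73.0 and 75.5%). At day 2 its share was 30.1, 42.8, 36.7 and 33.4%, while Fos had 34.2, 32.5, 60.9 and 57.1%. Fosl1, a member linked to migrating and wounded cells, had 34.4 and 18.7% in day 2 replicates 1 and 2 and 1.28 and 5.26% in replicates 3 and 4, against 1.59 and 2.50% in control. Myc had 49.3 and 33.8% of the Myc family in control, 84.7, 87.2, 83.4 and 74.4% at day 2 and 54.7 and 81.4% at day 14, and Mycl had 46.1 and 61.8% in control. The Myc family summed to 6.13 and 4.40 FPKM in control, 11.6, 9.32, 5.86 and 6.96 at day 2, and 6.93 and 8.58 at day 14. In day 2 replicate 3 the sum was thus below that of control replicate 1, despite the larger share of Myc. The level of Myc relative to its partner Max was 0.337 and 0.151 in control, 0.677, 0.587, 0.396 and 0.530 at day 2, and 0.208 and 0.414 at day 14. All 4 day 2 ratios exceeded both controls, and 1 day 14 ratio fell within the day 2 range. These shares were set up after values had been seen and carry no test.

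**Figure D4:**
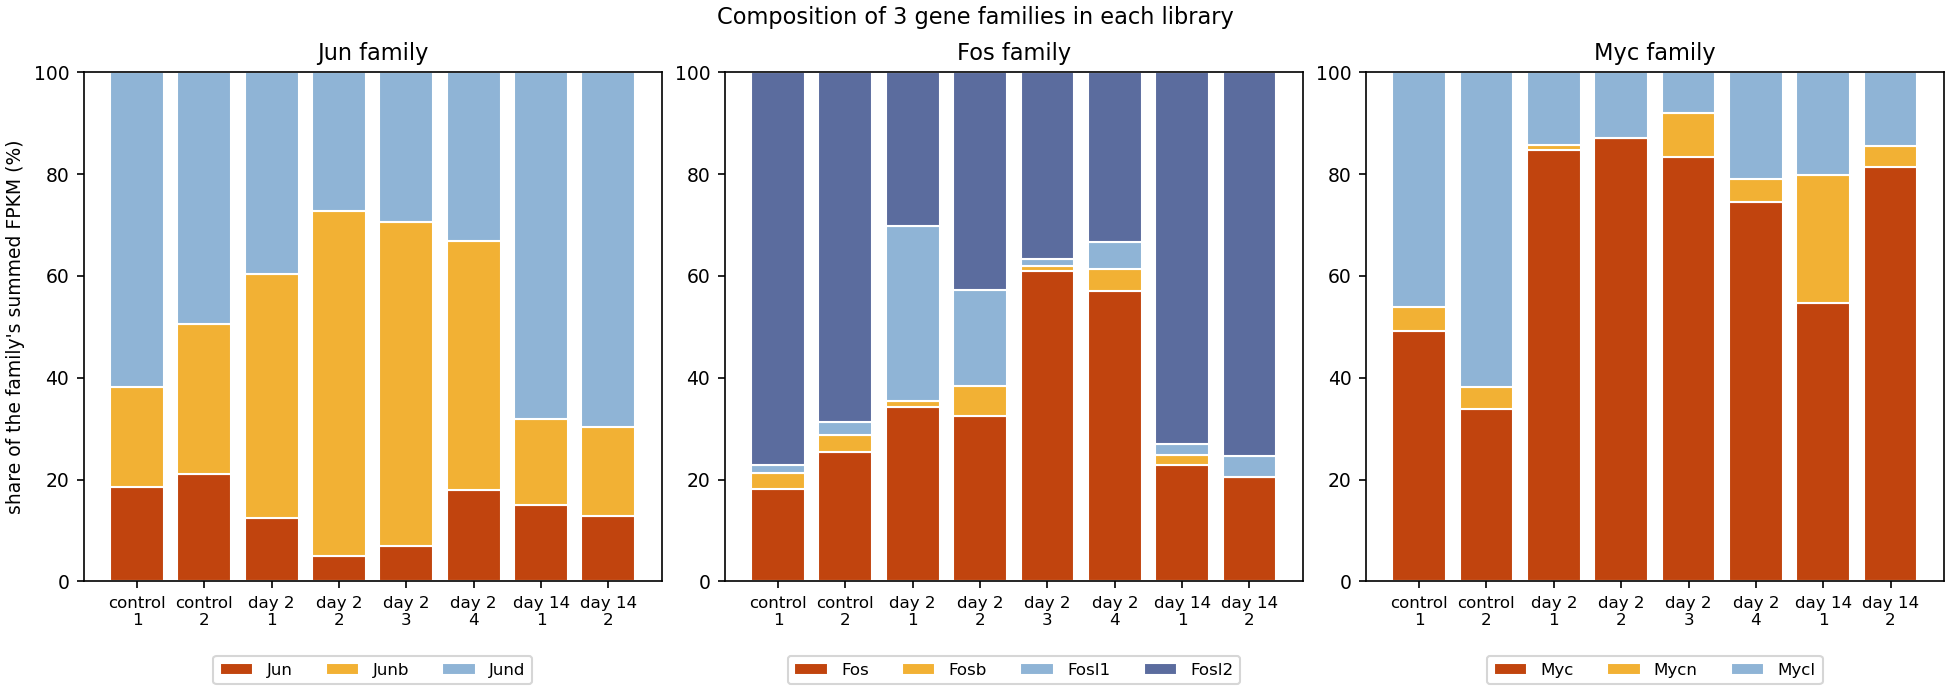
Share of summed FPKM (%) that each gene takes of the Jun, Fos and Myc families in each library. Junb widens in the 4 day 2 bars, Fosl1 is visible mainly in day 2 replicates 1 and 2, and Myc takes 74.4% or more of its family at day 2.

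Genes around these 10 in the same pathways moved unevenly. Among other immediate early genes 31 of 38 listed were tested, and by limma 10 rose and 0 fell at day 2 (17 and 0 at an unadjusted p under 0.05), with a median log2 change of 1.02 against 0.05 for all tested genes. Of all tested genes 9.72% were called higher at day 2 and 11.5% lower. The largest rises were those of Id1 (5.20 ± 0.37, adjusted p = 0.000899), an inhibitor of differentiation factors, Socs3 (3.13 ± 0.57, 0.0103), the feedback inhibitor of cytokine signalling, and Btg2 (2.71 ± 0.52, 0.0120), an anti-proliferative gene. Id1 went from a mean of 2.88 ± 0.137 FPKM (SD, n = 2) to 150 ± 58.6 (SD, n = 4). At day 14 against control 6 were called higher, Id1 (2.99), Cebpb (2.26), Id3 (2.24), Hes1 (2.23), Cebpd (1.10) and Trib1 (1.00), with adjusted p from 0.0200 to 0.0379. In that comparison 5.21% of all tested genes were called higher.

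Of 19 other AP-1 family genes tested, 2 rose and 2 fell at day 2 (9.72% of all tested genes were called higher and 11.5% lower). Maff, a small Maf protein, rose by 2.42 ± 0.23 (limma adjusted p = 0.00169) and Jund by 1.07 ± 0.30 (0.0397), while Maf fell by 1.06 ± 0.26 (0.0279). At day 14 against control Atf7 rose by 2.44 ± 0.38 (adjusted p = 0.0206), and Atf5 fell by 1.84 ± 0.26 (0.0200) and Atf6 by 1.24 ± 0.28 (0.0365). Jund had a mean of 26.0 ± 3.98 FPKM in control, 57.5 ± 20.2 at day 2 and 55.3 ± 0.144 at day 14.

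The kinases and factors that switch immediate early genes on moved in both directions, with 27 tested, 2 higher and 4 lower at day 2 (shares close to the 9.72% and 11.5% of all tested genes) and a median of -0.04. Map2k2, a kinase that activates ERK, rose by 1.08 ± 0.30 (limma adjusted p = 0.0380) and Mapk3, which encodes ERK1, by 0.95 ± 0.25 (0.0333). Mkl2, a co-activator of serum response factor, fell by 0.87 ± 0.20 (0.0200), and Mapk9 (-0.81) and Braf (-0.74), named after their values were seen, were also called lower. Among 18 feedback inhibitors tested, 2 rose and 0 fell at day 2, with a median of 0.15. The share that rose was close to the 9.72% of all tested genes. These 2 were the ERK phosphatases Dusp5 (2.11 ± 0.56, limma adjusted p = 0.0331) and Dusp6 (1.06 ± 0.21, 0.0132). Both fell from day 2 to day 14, with changes of -2.25 ± 0.56 (0.0330) and -0.94 ± 0.21 (0.0231). In that comparison 3 of the 18 fell and 1 rose, where 7.03% and 9.09% of all tested genes were called lower and higher. The 1 that rose was the ERK and stress kinase phosphatase Dusp1 (1.90 ± 0.46, limma adjusted p = 0.0312). The other that fell was Nab1, a co-repressor of Egr1 (-1.03 ± 0.29, 0.0455). Dusp1 and Nab1 were named after their values were seen. Of 10 NF-kB feedback genes tested, 2 rose and 0 fell at day 2, against 9.72% and 11.5% of all tested genes. These were Nfkbiz (1.79 ± 0.37, limma adjusted p = 0.0151) and the adhesion gene Icam1 (1.56 ± 0.27, 0.00857). Nfkbiz was also the 1 called higher at day 14 against control (1.66 ± 0.43, 0.0484), where 5.21% of all tested genes were called higher.

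Around Myc, 9 of 32 target genes tested rose at day 2 and 0 fell by limma (14 and 1 at an unadjusted p under 0.05), with a median of 0.51. The shares of all tested genes called there were 9.72% higher and 11.5% lower. Lactate dehydrogenase Ldha rose by 1.79 ± 0.48 (limma adjusted p = 0.0346), the nucleotide kinase Nme1 by 1.67 ± 0.29 (0.00898) and the ribosome assembly factor Ppan by 1.63 ± 0.39 (0.0239). At day 14 against control 5 targets were called higher and 1 lower, where 5.21% and 4.58% of all tested genes were called higher and lower. Ppan (2.94 ± 0.45, adjusted p = 0.0200), Nop56 (2.63 ± 0.35, 0.0166), Mybbp1a (1.93 ± 0.44, 0.0365), Cdk4 (1.74 ± 0.25, 0.0200) and Gnl3 (1.09 ± 0.25, 0.0365) were higher, all but the cyclin-dependent kinase Cdk4 being nucleolar, and the cap-binding factor Eif4e was lower (-1.74 ± 0.40, 0.0380). Ppan went from 8.79 ± 0.761 FPKM in control to 31.2 ± 13.6 at day 2 and 76.4 ± 26.2 at day 14. Ldha went the other way after day 2, from 1650 ± 376 FPKM to 185 ± 147 at day 14, a fall of 3.39 ± 0.48 (0.00662). Of 12 network partners tested, 3 fell and 1 rose at day 2, against 11.5% and 9.72% of all tested genes. Mlxipl, the carbohydrate response factor, fell by 1.69 ± 0.43 (limma adjusted p = 0.0301), Mxd4 by 1.22 ± 0.21 (0.00865) and Mga by 1.06 ± 0.21 (0.0124). The 1 that rose was Zbtb17, a zinc finger partner of Myc named here after its value was seen (0.92 ± 0.27, 0.0470).

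Of 14 wound genes tested that are known as targets of AP-1 or Egr1, 5 rose and 0 fell at day 2 by limma (6 and 0 at an unadjusted p under 0.05), with a median of 1.11. Of all tested genes 9.72% were called higher at day 2 and 11.5% lower. The list held 19 genes, and those that did not pass the filter are outside this count. The receptor gene Tnfrsf12a rose by 4.67 ± 0.38 (limma adjusted p = 0.00123), from 7.83 ± 0.135 to 240 ± 102 FPKM, the protease inhibitor gene Timp1 by 3.05 ± 0.57 (0.0113) and the chemokine gene Ccl2 by 2.92 ± 0.82 (0.0393). The other 2 that rose, named after their values were seen, were the urokinase receptor gene Plaur (2.67) and the heme oxygenase gene Hmox1 (1.72). Tnfrsf12a and Timp1 fell from day 2 to day 14, with changes of -4.005 ± 0.38 (0.00279) and -2.78 ± 0.57 (0.0184). Vegfa, the endothelial growth factor, was higher at day 14 than in control by 1.57 ± 0.30 (0.0295). Of the 6 genes of dividing cells none was called by limma in any comparison, nor had an unadjusted p under 0.05, with a median of 1.81 at day 2 across the unlike libraries described above.

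**Figure D5:**
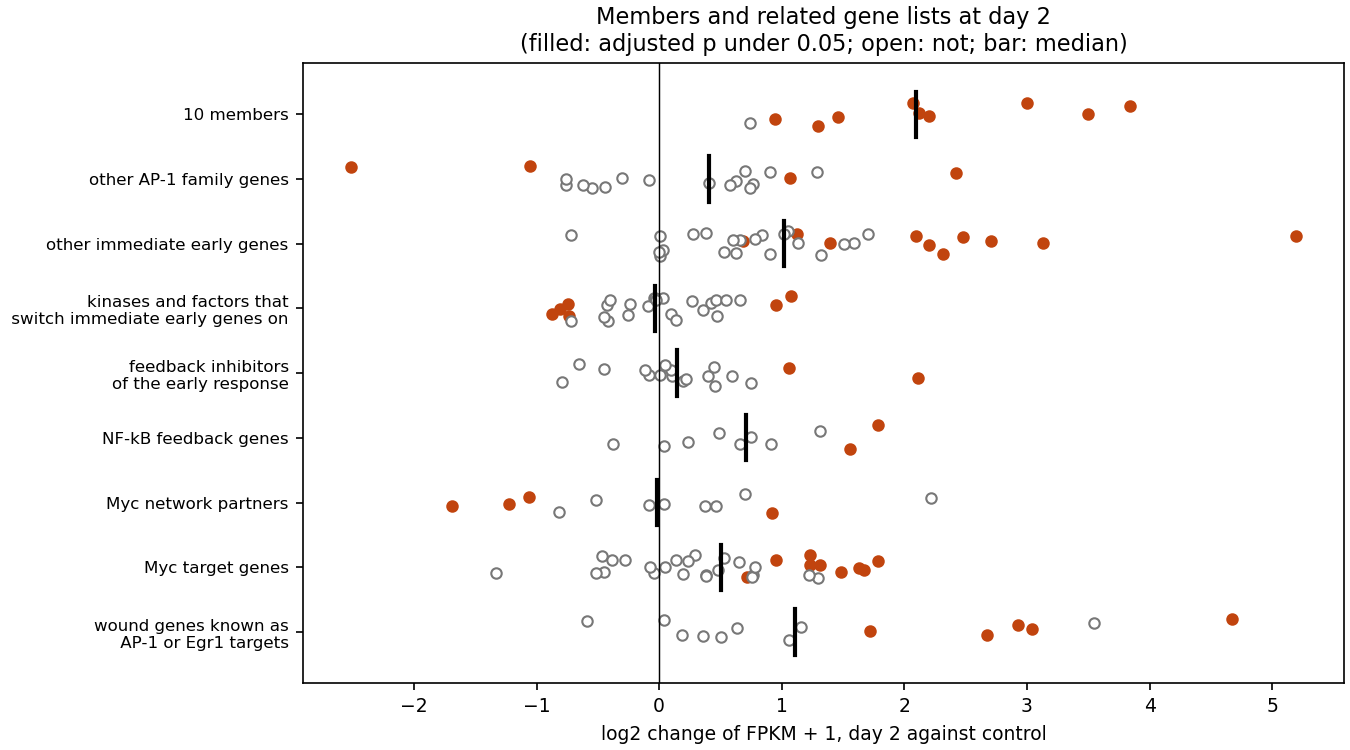
Log2 change of FPKM + 1 at day 2 against control for the 10 genes and for each list of related genes, 1 point per tested gene, filled where the adjusted p was under 0.05, with a bar at the median. The 10 genes have a median of 2.10, other immediate early genes 1.02, wound genes 1.11 and Myc target genes 0.51, while the kinases and the Myc partners centre near 0.

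Across the 8 libraries the 45 pairs among the 10 genes correlated on the log2(FPKM + 1) scale with a median Pearson r of 0.81, as a description of points that share the same 3 groups. Fos and Klf6 were most alike (r = 0.987) and Egr1 and Myc least (r = 0.414). Among 6903 other named genes with a mean of at least 5 FPKM, those most like Egr1 were Parp2 (r = 0.914), Maff (0.913) and Pofut2 (0.913), and those most like Atf3 were Ccdc12 (0.980), Rhbdf1 (0.966) and Mcrs1 (0.955), over the same 8 libraries. Those most like Ier3 were Malsu1 (0.992), Cda (0.986) and Phc2 (0.986), and those most like Myc were Mrpl2 (0.985), Card19 (0.969) and Sec11a (0.964). Cda, cytidine deaminase, showed the step seen in Ier3, at 62.2 and 69.9 FPKM in day 2 replicates 1 and 2, 19.2 and 20.9 in replicates 3 and 4, and 9.07 and 9.72 in the controls. Card19 stood at 33.5 and 26.0 FPKM in day 2 replicates 1 and 2, at 13.3 and 15.8 in replicates 3 and 4, and at 10.1 and 18.9 at day 14, where replicate 2 was the higher for Myc as well.

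In GENCODE M21 on GRCm38 the genes lie on 9 chromosomes, with Junb (ENSMUSG00000052837) and Ier2 (ENSMUSG00000053560) both on chromosome 8, at chr8:84974484-84978718 and chr8:84661331-84662852 on the minus strand. Fos (ENSMUSG00000021250) is at chr12:85473890-85477273, Klf6 (ENSMUSG00000000078) at chr13:5861482-5870394, Ier3 (ENSMUSG00000003541) at chr17:35821684-35822923, Myc (ENSMUSG00000022346) at chr15:61985391-61990374 and Fosl2 (ENSMUSG00000029135) at chr5:32135801-32157842, all on the plus strand. Jun (ENSMUSG00000052684) is at chr4:95049034-95052222 and Atf3 (ENSMUSG00000026628) at chr1:191170296-191218039, both on the minus strand. FPKM was read over whole genes, so no exon or isoform is singled out.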

How the data were processed

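RNA of mouse liver was measured in 8 libraries, grouped by label as normal control (2), day 2 (4) and day 14 (2). The deposited table gives gene FPKM, per the file headers. Named in the submitters' processing notes, with no role, are Cufflinks 2.2.1, HISAT2 2.10, DESeq2 and HTSeq, and as builds mm9 and GRCm38. The tool, build and annotation behind the table are not given in the sources used. Gene names were found for 47219 of 47719 identifiers, and 27 symbols that had become dates were restored. FPKM was transformed to log2(FPKM + 1), genes that reached 1 FPKM in 2 or more libraries were kept, and group means were fitted with limma 3.58.1 in R 4.3.3 as 1 model with 3 group means, with limma's trend option (degrees of freedom 5 residual and 3.23 prior; two-sided; Benjamini-Hochberg adjustment within each comparison). The fit was tested on simulated data. The 10 genes and the lists were chosen with earlier results of these data known. Named beside them are up to 3 called genes of largest day 2 change per list, list genes called at day 14 against control, and the 3 genes most correlated with Egr1, Atf3, Ier3 and Myc. A few genes of the lists are also described at day 14 against day 2. Some genes of the lists that this rule names are not reported here. As alternatives, each library was left out, and other fits used a pseudocount of 0.1, a filter of 5 FPKM or none, quantile or median-ratio scaling, the compared pair of groups alone, limma without its trend option, or a correction per library for transcript length and GC content (splines of 4 degrees of freedom, 12307 genes). Gene models came from GENCODE M21. Figures used matplotlib 3.10.9. Depth is unknown, so no counting interval was computed.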

Additional observations from a re-analysis of the deposited data

Results flagged for a closer look

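For 4 genes the change at day 14 differed from the change at day 2, by the test of day 14 against day 2 in the same model. These differences were -1.97 for Fos, -2.72 for Junb, -3.57 for Ier3 and -2.24 for Klf6 on the log2(FPKM + 1) scale. Fos and Ier3 passed the filter only because of their day 2 libraries, where they were high. No day 2 library of any of the 10 genes stood apart from the other 3 by Dixon's 95% critical value for 4 samples, in 10 groups examined. The groups of 2 libraries were not examined in that way.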

How the results depend on the processing

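Of 158 single-gene values at day 2 against control recomputed under the alternatives, 129 kept direction and side of the threshold, 28 lost the call, 1 gained it and 0 reversed. At day 14 against control these counts were 151, 0, 2 and 5, and at day 14 against day 2 they were 144, 11, 2 and 1. The reversals at day 14 against control were Junb (-0.21), Ier3 (-0.10) and Klf6 (0.21) with the length and GC trend removed, Fos without control replicate 1 (-0.044 to 0.24 over all libraries left out in turn) and Egr1 without day 14 replicate 1 (-0.79 to 1.97). At day 14 against day 2 Myc reversed without day 14 replicate 1 (-0.69 to 0.043). With no filter 5 of the 10 genes were called at day 2 against control, and with only the compared pair of groups 1 was called at day 14 against control. Leaving out 1 library gave 1 to 10 of the 10 genes called at day 2 against control, 0 to 1 at day 14 against control and 0 to 4 at day 14 against day 2. Over all genes these ranges were 92 to 2971, 0 to 2097 and 17 to 2472, against 2620, 1208 and 1990 with every library. With the length and GC trend removed 1629 and 394 genes were called at day 2 and at day 14 against control. With no filter 691 genes were called at day 14 against control, and with only the compared pair of groups 2664 at day 14 against control and 982 at day 14 against day 2. Fosl2 and Atf3 were not tested at a filter of 5 FPKM. The cause of these changes was not tested. No paired analysis was possible because the titles of the groups share fewer than 2 numbers (1 day 2 and 1 day 14 title begin with the same number). Depth is unknown, and 2 libraries in each of 2 groups limit the precision.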
